A study of Mus musculus with 22 samples.

Results

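Integrins, laminins and the genes of the hemidesmosome were followed in mouse bladders exposed to the carcinogen N-butyl-N-(4-hydroxybutyl)nitrosamine (BBN) and in unexposed bladders. The list was made from every array probe whose RefSeq accession maps to an integrin α chain (Itga), an integrin β chain (Itgb) or a laminin α, β or γ chain (Lama, Lamb, Lamc), together with Nid1, Nid2, Dst, Plec and Cd151. A gene was kept if its probe was well above background, a flag of the scanner software, on at least 2 of the 22 arrays. All 42 listed genes passed, of 17404 genes tested in all. Of the 42, 29 were well above background on every array and 4 on fewer than 11 arrays (Itgad, Itgb8, Itga2b and Lamc3). The kept members include Itgb8, measured on 2 arrays, which just met the minimum, and Itgad, measured on 3.

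RNA was measured on 1-colour Agilent arrays, 1 array a sample, in 8 groups of mice aged 8 months. The mutant groups carried Krt5-CreERT2 or Upk2-CreERT2, the LSL-RFP reporter and 1 mutant Trp53 allele, and received tamoxifen and BBN: R270H with the Krt5 driver (Krt5-Cre R270H, 3 arrays) or the Upk2 driver (Upk2-Cre R270H, 2), and R172H with the Krt5 driver (Krt5-Cre R172H, 4) or the Upk2 driver (Upk2-Cre R172H, 3). The Krt5 promoter is active in basal urothelial cells and the Upk2 promoter in luminal ones, so each Cre is confined to the cells that use its promoter. The Cre controls, Krt5-Cre (2 arrays) and Upk2-Cre (2), carried the Cre and LSL-RFP and received tamoxifen and BBN. A further BBN group (3 arrays) is titled Trp53+/- while its genotype entry reads Trp53R270H/+ with no Cre, and it received BBN without tamoxifen; it is called Trp53+/- here. The 3 normal arrays are of wild type mice given neither tamoxifen nor BBN. BBN ran for 24 weeks in the 19 exposed samples, which are labelled bladder tumor. The normals are labelled as bladder urothelium, whereas the extraction protocol speaks of bladders.

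Between 42.4% and 63.2% of spots were well above background per array, no spot was saturated, and the number of arrays limits the precision. On 11 of 22 arrays, 8 of them BBN arrays, the levels of sex-linked genes did not match the labelled sex: all 3 normals, all 4 Krt5-Cre R172H arrays, replicates 1 and 2 of Upk2-Cre R172H, replicate 2 of Upk2-Cre and replicate 3 of Trp53+/-. All 3 normals are labelled female and read as male by these genes. The BBN arrays hold both sexes, by label and by these genes. The Upk2-Cre replicates 1 and 2 share an animal code, as do the Trp53+/- replicates 1 and 2; the sex-linked genes of the Upk2-Cre pair differ. The labels' animal codes otherwise differ, and p-values measure the spread between these samples. Slide 4 held the normal arrays alone, so slide and normal cannot be told apart. The tissue label also separates the normals from every BBN array. Tamoxifen and Cre separate them from every BBN group but Trp53+/-. Differences between BBN and normal samples therefore cannot be assigned to BBN alone. The normals shared their scanner (scanner B) with 8 BBN arrays, and differences computed on that scanner alone are given beside the main ones. Neither R270H group had an array on scanner B, so these differences average the means of the other BBN groups only. The lowest signal well above background lay between -4.48 and -2.69 on the arrays of scanner A and between -5.81 and -5.0 on those of scanner B, so levels of dim genes depend on the scanner. Levels below are log2 signals relative to the array's own 75th percentile, so a level is compared only with the same gene's level in other samples. Differences between BBN and normal bladders are the mean of the 7 BBN group means minus the normal mean; a gene is called where limma's Benjamini-Hochberg adjusted p over all 17404 genes is at or under 0.05.

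Integrins are receptors made of 1 α and 1 β chain that bind the extracellular matrix or other cells. Laminins are trimers of an α, a β and a γ chain and form the basement membrane, to which nidogens and collagen IV also belong. In stratified epithelia and in the basal layer of the urothelium, integrin α6β4 binds a laminin that holds the chains α3 and β3 from the cell's side, and plectin and the epithelial dystonin (BP230) tie it to keratin filaments; this junction is the hemidesmosome. The other laminin chains belong mostly to basement membranes around muscle, nerve, vessels and, for Lama5, under epithelia, and many of the other integrins are used by stromal cells, leukocytes or platelets.

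Promoter windows of 250 bases before the start, from RefSeq on GRCm38.p6, were held for 26 of the 42 members. Lamb3 is printed as a hemidesmosomal laminin gene that varied together with Lama3 among BBN bladders, and Lama2 and Itga11 as the members that were lowest in BBN relative to normal bladders. Capitals mark CACCC on either strand (its complement is GGGTG), the core of the box bound by Krüppel-like factors. Windows are chr1:193301744-193301993 on the plus strand for Lamb3, chr10:27616943-27617192 on the minus strand for Lama2 and chr9:62677605-62677854 on the plus strand for Itga11.
Lamb3: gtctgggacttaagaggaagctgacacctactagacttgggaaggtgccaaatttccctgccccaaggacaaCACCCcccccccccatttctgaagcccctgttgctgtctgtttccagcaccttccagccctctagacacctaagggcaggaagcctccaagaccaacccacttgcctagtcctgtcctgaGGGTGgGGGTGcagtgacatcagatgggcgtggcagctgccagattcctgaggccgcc
Lama2: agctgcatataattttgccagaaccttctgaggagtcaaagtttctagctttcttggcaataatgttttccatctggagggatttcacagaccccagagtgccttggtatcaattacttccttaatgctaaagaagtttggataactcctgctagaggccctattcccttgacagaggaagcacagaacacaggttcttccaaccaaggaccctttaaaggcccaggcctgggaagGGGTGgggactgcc
Itga11: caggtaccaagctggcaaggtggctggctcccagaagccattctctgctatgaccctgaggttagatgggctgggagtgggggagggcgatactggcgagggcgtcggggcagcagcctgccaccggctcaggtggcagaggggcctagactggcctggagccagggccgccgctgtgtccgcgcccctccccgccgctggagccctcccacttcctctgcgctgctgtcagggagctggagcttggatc
The Lamb3 window held 3 CACCC matches, the Lama2 window 1 and the Itga11 window 0. Neither TGANTCA (the AP-1 core) nor GGAATG (the TEAD core), each searched on both strands, was in any of the 3 windows; no motif of the 3 contains another. Over 27025 promoters, 51.3% held CACCC, 12.6% GGAATG and 6.87% TGANTCA. Among the 26 members' windows, 17 held CACCC, 3 held GGAATG (Itga10, Itgb1 and Nid1) and 1 held TGANTCA (Itgax). A match here describes letters only.

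The first question was how these genes differ between bladders after BBN and normal bladders. Of the 42 members, 22 (52.4%) were called, against 42.7% of all genes tested. Of these, 15 were higher in BBN bladders (35.7% of members, against 23.7% of all genes) and 7 were lower (16.7%, against 19% of all genes). Counts by role, partner or marker list further on are to be read beside these shares of all genes. The members' median log2 difference was 0.74, beside 0.13 over all genes. All 22 called members had all 7 BBN group means beyond the normal mean. The 8 genes Itga6, Itgb4, Lama3, Itga3, Itga2, Itga5, Itgav and Itgb3, had all 19 BBN arrays above all 3 normals (19.05% of members, against 13.6% of all genes). Itga11, Itga4 and Lama2 had all 19 below (7.14%, against 12% of all genes). In bulk samples such as these, fewer cells of a type and less RNA per cell cannot be told apart. The authors' deposited normalized values, which held 29 of the 42 members, gave 12 members higher and 2 lower. Those lower included Lama5, which was not called in the main fit. The median over the members held was 0.69. Members without a value included Itga10, Itga11, Itga4, Lama1, Lama2 and Lamc3, called lower in the main fit. Itga2b and Itgal, called higher in that fit, had no value either, so fewer members could be called in the deposited values. The median over all genes, 0.13 under the main scaling, was -0.01 there and also under quantile normalization, where the members' median was 0.40.

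On scanner B alone, where the normals and 8 BBN arrays lay, the log2 differences of the called members whose scanner B value is not given further on were 1.26 for Dst, 1.35 for Itga1, -0.99 for Itga10, 1.66 for Itga5, 1.55 for Itga2b, -1.72 for Itga4, 1.24 for Itgax, 0.77 for Itgb1, -1.45 for Lamb2, -1.39 for Lama1 and -2.03 for Lamc3. Each had the direction of the difference over all arrays. In a fit of that scanner's arrays, Itga2b (adjusted p 0.182) and Lama1 (adjusted p 0.0592) did not pass, while Itgad (-2.62, adjusted p 0.000138), Itga8 (-1.14, adjusted p 0.00148), Lamc1 (-0.68, adjusted p 0.0459), Lamb3 and Plec did. With the scanner as a block, Itga10 (-0.80, adjusted p 0.123), Itga2b (1.96, adjusted p 0.0896), Lama1 (-1.01, adjusted p 0.308), Lamc3 (-2.03, adjusted p 0.0519), Dst and Lamb2 did not pass, while Itgad (-2.58, adjusted p 9.14e-05) and Itga9 (1.61, adjusted p 0.0335) did.

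**Figure D1:**
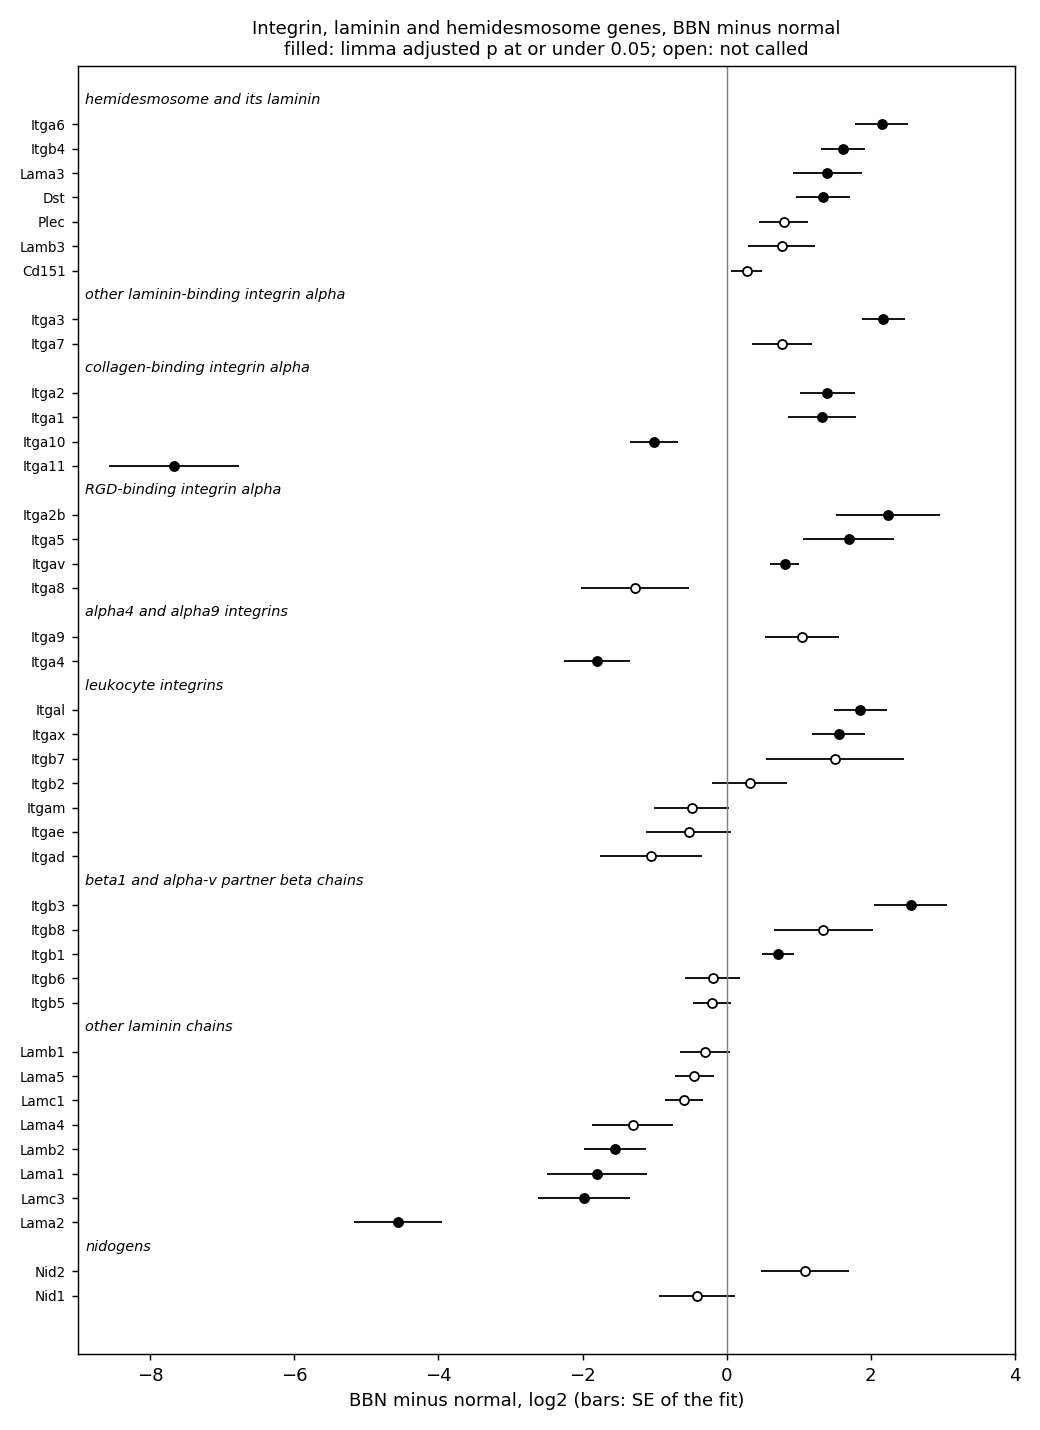
Log2 difference between BBN and normal bladders (x axis) for the members named in the text (y axis), grouped by role; points are limma estimates, bars 1 standard error, and filled points are called. The plotted genes of the hemidesmosome and its laminin all lie right of 0, the other laminin chains all lie left of 0, and Itga11 is farthest left at -7.67.

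Markers of several cell types differed between the same arrays. Basal urothelial markers averaged 5.33 in BBN arrays (4.47 to 6.05) and 0.77 in normals (0.59 to 0.95), with 5 of 7 called higher; Dsg3 was not well above background on any normal. Luminal markers averaged 0.57 in BBN arrays (-1.36 to 2.12) and 5.55 in normals (5.36 to 5.74), with 8 of 9 called lower; Snx31 was not well above background on any BBN array. Smooth muscle markers averaged 3.36 (1.54 to 5.69) in BBN arrays and 1.25 (0.58 to 1.67) in normals, with 8 of 8 called higher. Fibroblast markers averaged 1.88 (-0.11 to 4.15) in BBN arrays and 3.94 (3.70 to 4.32) in normals, with 5 of 7 called lower. Leukocyte markers averaged 0.05 (-0.59 to 1.69) in BBN arrays and -0.75 (-0.93 to -0.48) in normals, with 4 of 9 called higher. Neutrophil markers averaged 1.42 (-0.03 to 3.31) in BBN arrays and -2.46 (-2.87 to -2.22) in normals, with 3 of 5 tested called higher; Cxcr2 was not well above background on any normal. Platelet markers averaged -0.17 (-2.19 to 2.19) in BBN arrays and -3.12 (-3.37 to -2.82) in normals, with 1 of 4 (Ppbp) called higher; Ppbp differed by 10.3 and the list's median difference was 1.01, so that gene carries most of the list's shift. Endothelial markers averaged 0.02 (-1.73 to 2.41) in BBN arrays and 0.64 (0.61 to 0.69) in normals, with 1 of 7 called lower, and of 5 Schwann cell markers 0 were called. Of the first genes of these lists, those reported differed by 1.87 (Krt5), -5.27 (Upk1a), 0.57 (Ptprc), 6.72 (S100a8), 2.53 (Myh11), -2.80 (Pdgfra), -0.59 (Pecam1) and -0.27 (Pf4) on the log2 scale. The part of these markers in the members' differences was not tested.

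Of the 8 genes of the hemidesmosome and its laminin, 5 rose in BBN bladders, 0 fell and the median log2 difference was 1.37. Over all genes, 23.7% rose and 19% fell. Itga6, the α chain of the hemidesmosomal integrin, had levels of 5.10, 6.68 and 7.63 (lowest, median and highest of 19 BBN arrays), against 4.28, 4.63 and 4.16 in the 3 normals. The lowest BBN array lay above the highest normal. The BBN group means averaged 6.51 ± 0.55 (SD over 19 arrays) and the normals 4.36 ± 0.25 (SD, n = 3), a 4.46-fold difference (log2 2.16, SE 0.37, limma adjusted p 0.000252). The 7 BBN group means lay close together, between 6.30 in Krt5-Cre controls and 6.77 in Upk2-Cre R270H. On scanner B alone the log2 difference was 2.05, and both further probes of Itga6 also gave higher levels in BBN arrays (1.63 and 2.14).

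Itgb4, the β chain that pairs with α6 alone and anchors plectin, had levels of 4.93, 6.08 and 6.80 (lowest, median and highest) in BBN arrays, against 4.60, 4.15 and 4.36 in the normals. No BBN array overlapped a normal. BBN bladders averaged 5.99 ± 0.50 and normals 4.37 ± 0.23, a 3.06-fold difference (log2 1.61, SE 0.31, limma adjusted p 0.00059). Group means ran between 5.50 in Upk2-Cre R270H and 6.28 in Trp53+/-, and the scanner B difference was 1.64. Over the 19 BBN arrays the levels of Itga6 and Itgb4 had a Pearson r of 0.565 and a Spearman rho of 0.707 (adjusted permutation p 0.0339 for r), and r was 0.760 without the 2 arrays farthest from the Itga6 median, 0.47 within scanner A and 0.924 within scanner B.

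The cytoplasmic linkers were less uniform. Dst, which encodes the dystonins including epithelial BP230, was 2.54-fold higher by its brightest probe (2.22, 3.82 and 4.93 in BBN arrays, against 2.56, 1.75 and 2.93 in normals; limma adjusted p 0.00913), with 18 of 19 BBN arrays above all normals. Its 3 further probes gave -0.80, -0.42 and -1.18, all opposite in sign, and the mean over its probes was -0.26 (limma adjusted p 0.351), so the direction for Dst rests on which probe stands for the gene. Leaving out normal replicate 2 ended the Dst call (1.01, adjusted p 0.0919), as did a scanner block (1.03, adjusted p 0.073). Plec, the plectin gene, was 1.74-fold higher without passing (limma adjusted p 0.0702; 4.73 to 6.82 in BBN arrays, against 4.54, 4.63 and 4.996 in normals). It passed on the normals' scanner alone (0.49, adjusted p 0.0433) and as the mean over probes (1.11, adjusted p 0.0104), and without replicate 2 of Upk2-Cre R270H or replicate 1 of Trp53+/- (0.89 and 0.85, adjusted p 0.0366 and 0.0395). Cd151, a tetraspanin that associates with the laminin-binding integrins, differed by 0.28 (limma adjusted p 0.316) and its groups overlapped.

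**Figure D2:**
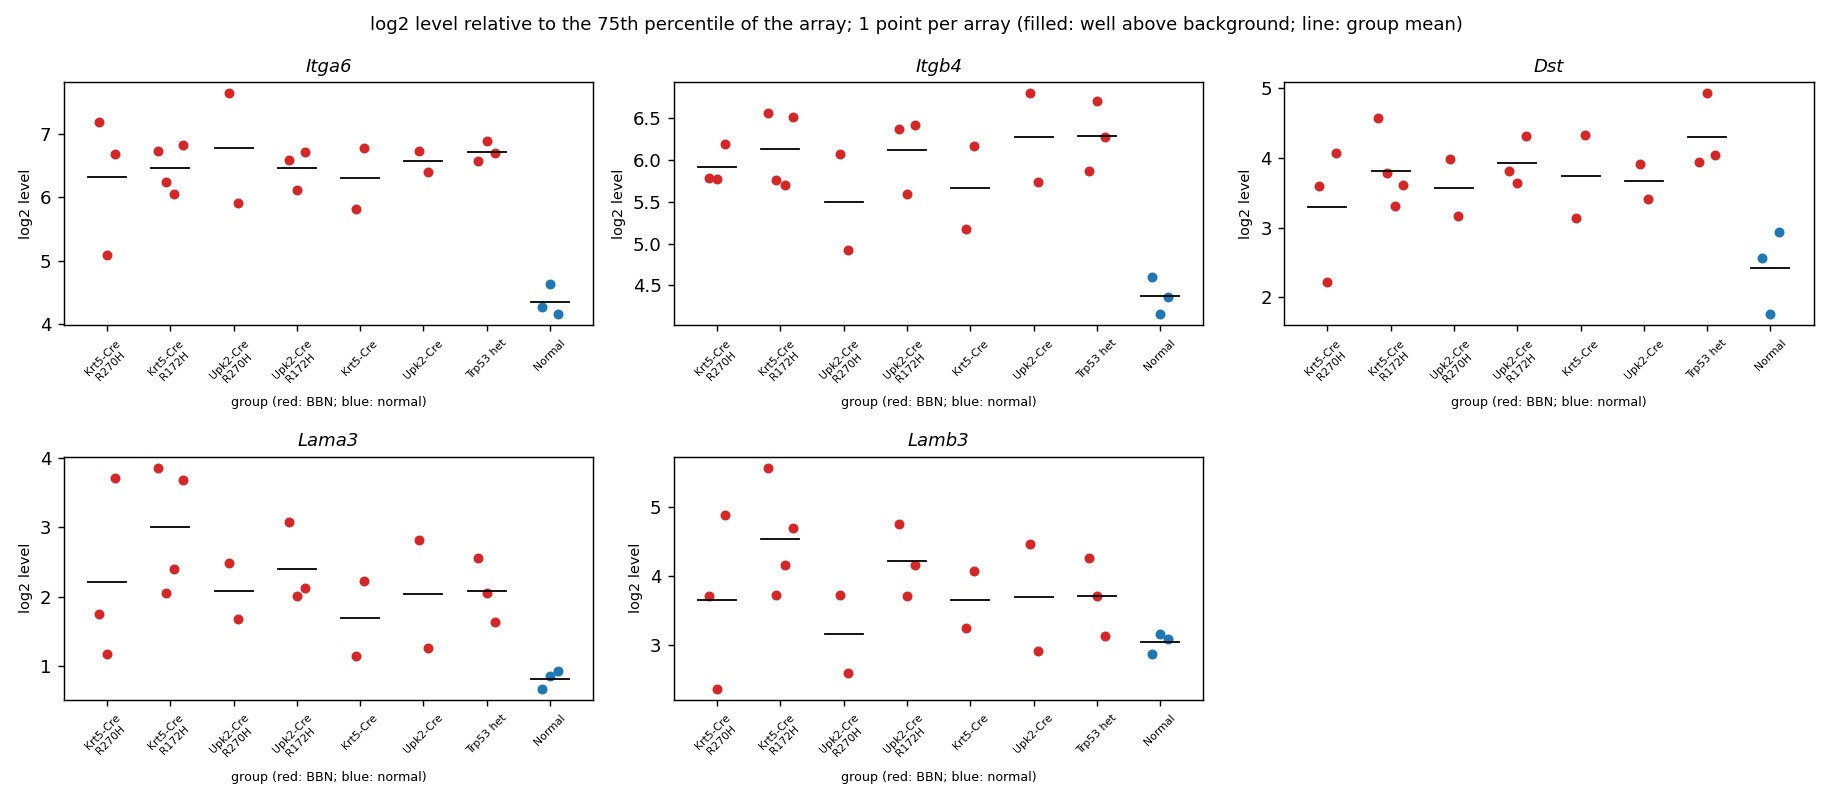
Log2 level (y axis) of Itga6, Itgb4, Dst, Lama3 and Lamb3 on each array by group (x axis); points are arrays and lines are group means, red for BBN and blue for normal, with Trp53 het standing for Trp53+/-. For Itga6, Itgb4 and Lama3 every BBN point lies above the normal points, while for Lamb3 the groups overlap.

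The laminin chains α3 and β3 belong to the same trimer, the ligand of the hemidesmosomal integrin. Lama3 had levels of 1.15, 2.12 and 3.86 in BBN arrays, against 0.68, 0.85 and 0.93 in normals, with no overlap and a 2.63-fold difference (log2 1.40, SE 0.48, limma adjusted p 0.0276). Lamb3 had levels of 2.36, 3.73 and 5.58 in BBN arrays, against 2.87, 3.15 and 3.09 in normals; 15 BBN arrays lay above and 2 below all normals, and the difference of 0.77 did not pass (limma adjusted p 0.188). On scanner B alone the differences were 1.57 for Lama3 and 1.09 for Lamb3, and Lamb3 passed in a fit of that scanner's arrays (adjusted p 0.0102). Lama3 lost its call without any 1 of the 3 normal arrays (1.32 to 1.45, adjusted p 0.077 to 0.102).

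Among the BBN bladders both chains varied together. Over 19 arrays, Lama3 and Lamb3 had r 0.918 and rho 0.953 (adjusted permutation p 0.0001 for r). The r value was 0.881 without the 2 farthest arrays, 0.94 within scanner A and 0.945 within scanner B. This was 1 of 20 chain pairs examined, of which 7 had an adjusted p at or under 0.05 in 100000 permutations; all pairs share their arrays, and 2 pairs of arrays share an animal code. By group, Krt5-Cre R172H had the highest mean for both chains: 3.0 ± 0.90 for Lama3 and 4.54 ± 0.80 for Lamb3 (SD, n = 4). The test for any difference among the 7 BBN groups did not pass for Lama3 or Lamb3 (limma adjusted p 0.984 and 0.978). Over the same arrays the summed basal marker level had r 0.187 with Lama3, 0.325 with Lamb3 and 0.287 with Itga6, none with an adjusted p at or under 0.05, and r 0.559 (rho 0.625, adjusted permutation p 0.0208) with Itgb4.

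**Figure D3:**
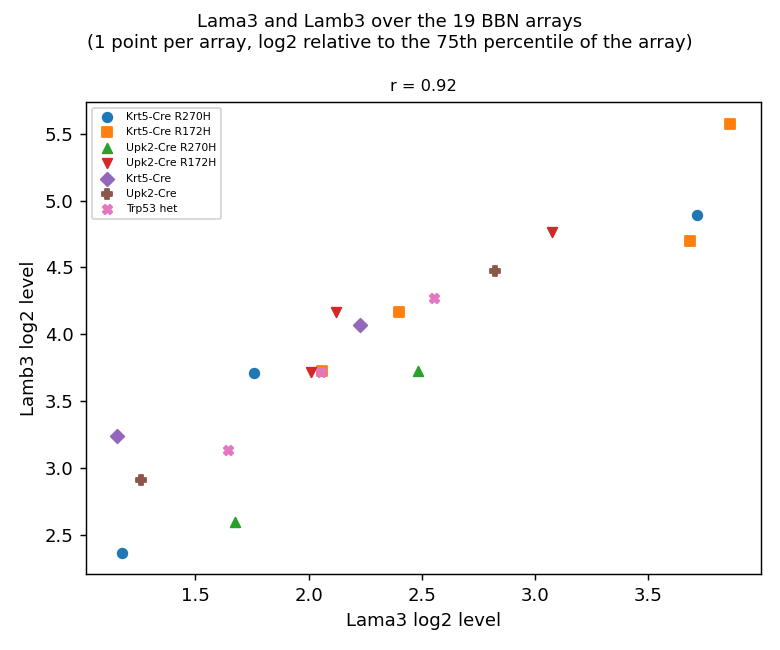
Log2 level of Lamb3 (y axis) against that of Lama3 (x axis), with 1 point for each of the 19 BBN arrays and its group shown by colour and shape. The levels of Lama3 and Lamb3 rise together (r 0.92).

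Of the other laminin-binding α chains, Itga3 rose and Itga7 did not pass. Itga3, the α chain of the α3β1 receptor of basal epithelial cells, had levels of 1.61, 2.995 and 4.26 in BBN arrays, against 1.13, 0.26 and 0.95 in normals. Every BBN array lay above every normal. The BBN mean was 2.95 ± 0.63 and the normal mean 0.78 ± 0.46, a 4.51-fold difference (SE 0.30, limma adjusted p 3.88e-05), and 2.04 on the log2 scale on scanner B alone. Itga7, the laminin receptor chain of muscle, ranged over -0.88, 0.32 and 2.60 in BBN arrays, against -0.03, -0.16 and -0.20 in normals (difference 0.77, limma adjusted p 0.145). Over BBN arrays Itga7 moved with the smooth muscle markers (r 0.854, rho 0.718, adjusted permutation p 5.5e-05; r 0.713 without the 2 farthest arrays).

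The 4 collagen-binding α chains split, with 2 higher and 2 lower. Itga11, a collagen I receptor chain of fibroblasts, was the member with the largest difference. It had levels of -5.17, -3.15 and -1.05 in BBN arrays, against 4.89, 3.94 and 4.47 in normals. All 3 normals and 12 of 19 BBN arrays were well above background, and the groups lay far apart. The BBN mean was -3.24 ± 1.58 and the normal mean 4.43 ± 0.47, a difference of measured means of -7.67 (SE 0.90, limma adjusted p 8.43e-06), and -7.08 on scanner B alone; the other 7 BBN arrays were near background, so no exact fold is given. Its spread among BBN arrays was at the 94.5th percentile of all genes' SDs. Over those arrays its level followed the fibroblast markers (r 0.764, rho 0.779, adjusted permutation p 0.000396; r 0.692 without the 2 farthest arrays).

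Itga2, the α chain of the epithelial and platelet collagen receptor, had levels of -2.85, -1.69 and -0.32 in BBN arrays, against -3.43, -3.29 and -2.96 in normals, with no overlap and a 2.64-fold difference (SE 0.38, limma adjusted p 0.00751; 1.56 on the log2 scale on scanner B). Itga1, a collagen receptor chain of smooth muscle and other mesenchymal cells, was 2.51-fold higher (-2.43 to 1.44 in BBN arrays, against -2.08 to -1.90 in normals; SE 0.47, limma adjusted p 0.0314). It lost its call without any 1 of the normals (1.29 to 1.38, adjusted p 0.0845 to 0.106). Itga1 moved with the smooth muscle markers over BBN arrays (r 0.856, rho 0.802, adjusted permutation p 5.5e-05; r 0.875 within scanner A and 0.873 within scanner B). Itga10, a cartilage collagen receptor chain, was lower by its brightest probe (-1.01, limma adjusted p 0.0220; 17 of 19 BBN arrays below all normals). Its other probe gave 4.08 by its measured means, with 14 of 19 BBN arrays and 0 of 3 normals well above background, and the mean over both gave 1.54 (adjusted p 0.00911), so its direction also rests on the probe. Without normal replicate 1 or 3 Itga10 lost its call (adjusted p 0.0861 and 0.128).

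**Figure D4:**
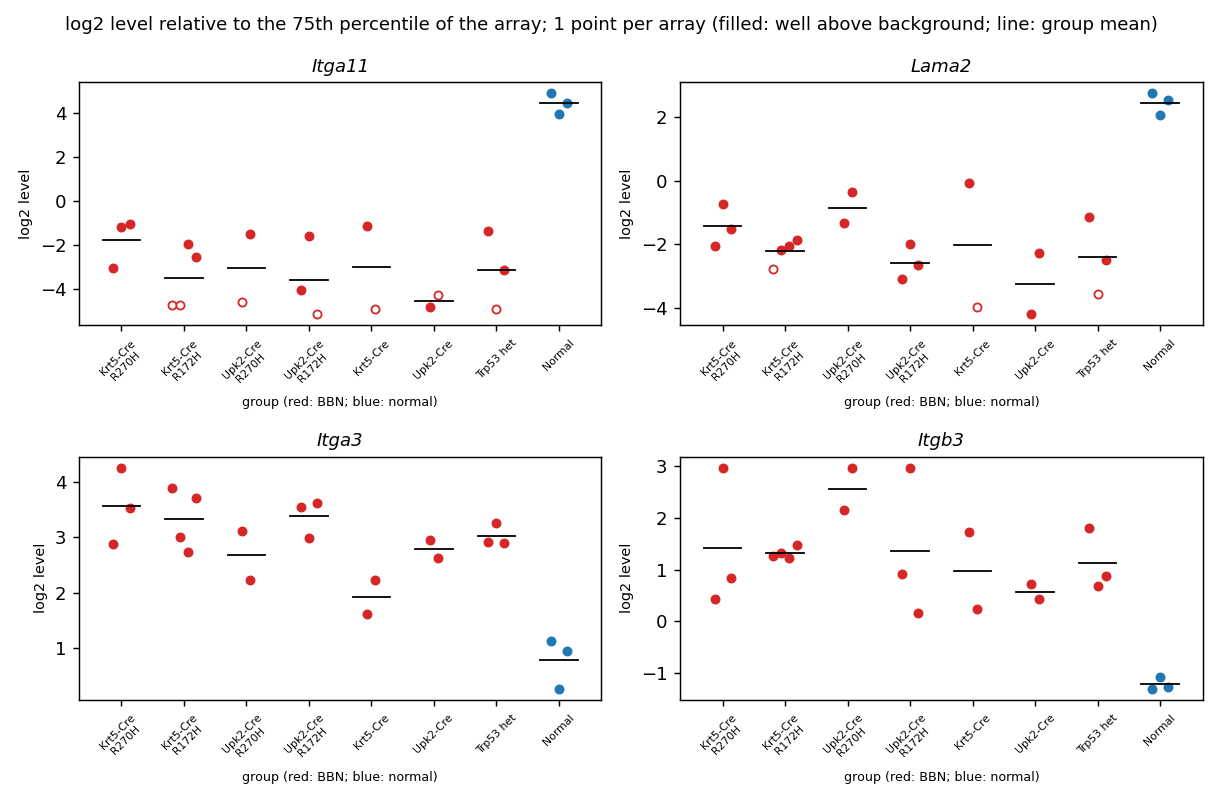
Log2 level (y axis) of Itga11, Lama2, Itga3 and Itgb3 on each array by group (x axis); points are arrays (filled where well above background) and lines are group means, red for BBN and blue for normal. The 3 normals lie above every BBN array for Itga11 and Lama2 and below every BBN array for Itga3 and Itgb3.

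Of the 4 α chains that recognise the RGD sequence, Itgav, Itga5 and Itga2b were higher. Itgav, the αv chain shared by several receptors for vitronectin and latent TGF-β, had levels of 2.83, 3.43 and 3.99 in BBN arrays, against 2.72, 2.57 and 2.56 in normals. The groups did not overlap, although the difference was small (1.75-fold, SE 0.20, limma adjusted p 0.00383; 0.86 on the log2 scale on scanner B). Its spread over BBN arrays was at the 12.6th percentile of all genes. Without the BBN arrays that went against their sex label it lost its call (0.77, adjusted p 0.0531). Itga5, the fibronectin receptor chain, was 3.24-fold higher (-1.89, -0.82 and 2.85 in BBN arrays, against -2.18, -2.77 and -2.28 in normals; SE 0.63, limma adjusted p 0.0387). Its groups did not overlap, but it lost its call without any 1 of the normals (1.51 to 1.81, adjusted p 0.0883 to 0.146), and without 1 of 3 BBN arrays, replicate 2 of Upk2-Cre R270H and replicate 1 of either Cre control (adjusted p 0.0501 to 0.0527). Itga8, the chain of the smooth muscle nephronectin receptor, did not pass (-1.27, limma adjusted p 0.178).

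Itga2b, the platelet and megakaryocyte chain, was well above background on 7 of 19 BBN arrays and 0 of 3 normals. It had levels of -6.38, -4.98 and -1.20 in BBN arrays, against -6.52, -7.36 and -5.78 in normals. Its measured means differed by 2.24 (limma adjusted p 0.0195). Most BBN arrays and all normals were near background, where levels depend on the scanner, so no fold is given. On scanner B alone it did not pass (1.55, adjusted p 0.182). The highest group mean was in Upk2-Cre R270H at -1.83. Without normal replicate 1 or 2 the call was lost (adjusted p 0.0663 and 0.12). Its level followed the platelet markers over BBN arrays (r 0.930, rho 0.897, adjusted permutation p 3.67e-05; r 0.874 without the 2 farthest arrays).

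Itga4, an α chain of leukocyte and mesenchymal receptors for VCAM-1 and fibronectin, fell in BBN bladders. It had levels of -3.32, -1.81 and -0.17 in BBN arrays, against 0.08, -0.15 and 0.10 in normals, with no overlap and 17 of 19 BBN arrays well above background. The difference was 3.47-fold lower (SE 0.46, limma adjusted p 0.00528), and the mean over its probes did not pass (-0.44, adjusted p 0.334). Its other probe was not well above background on any array, so that mean includes a background signal. Over BBN arrays it moved with the fibroblast markers (r 0.689, rho 0.690, adjusted permutation p 0.00185). Itga9, the related chain that binds tenascin, differed by 1.05 without passing (limma adjusted p 0.107; -2.52, -1.04 and 1.23 in BBN arrays, against -1.71, -1.92 and -2.11 in normals); it passed without replicate 1 of Upk2-Cre R270H (1.21, adjusted p 0.0499).

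Of the 7 leukocyte integrin chains, 2 rose and 0 fell (median 0.32), beside 23.7% of all genes that rose and 19% that fell. Itgal, the α chain of LFA-1 on lymphocytes, had levels of -4.34, -2.52 and -1.15 in BBN arrays, against -4.56, -4.26 and -4.26 in normals. Only 1 BBN array, in the Krt5-Cre controls, lay among the normals, and on it the probe was not well above background. The difference was 3.63-fold (SE 0.36, limma adjusted p 0.000753; 1.62 on the log2 scale on scanner B). Itgax, the CD11c chain of dendritic cells and some macrophages, had levels of -0.78, 0.82 and 2.58 in BBN arrays, against -1.13, -0.49 and -0.82 in normals, a 2.94-fold difference (SE 0.37, limma adjusted p 0.00293) with 18 of 19 BBN arrays above all normals. The shared β2 partner Itgb2 differed by 0.32 (limma adjusted p 0.640), and Itgam, the CD11b chain of myeloid cells, by -0.49 (limma adjusted p 0.464); a further Itgam probe gave 1.80 by its measured means, being well above background on 7 of 19 BBN arrays and 0 of 3 normals. Itgad (-1.05), Itgae (-0.53) and Itgb7 (1.51) did not pass (limma adjusted p 0.209 to 0.486). Itgb2 followed the leukocyte markers over BBN arrays (r 0.889, rho 0.702, adjusted permutation p 3.67e-05; r 0.658 without the 2 farthest arrays), while r was 0.294 for Itgal, 0.287 for Itgam and 0.363 for Itgax, none with an adjusted p at or under 0.05.

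Of the 5 β1 and αv-partner β chains, 2 rose and 0 fell (median 0.72), beside 23.7% of all genes that rose and 19% that fell. Itgb3, the β chain that pairs with αv and with the platelet chain, had levels of 0.16, 1.23 and 2.97 in BBN arrays, against -1.31, -1.08 and -1.29 in normals. All 19 BBN arrays lay above the normals. The BBN mean was 1.33 ± 0.91 and the difference 5.89-fold (log2 2.56, SE 0.50, limma adjusted p 0.000825; 2.62 on scanner B), and a further probe, well above background on 13 of 19 BBN arrays and 0 of 3 normals, gave 2.49 by its measured means. Group means ran between 0.57 in Upk2-Cre controls and 2.56 in Upk2-Cre R270H. Its level followed the platelet markers over BBN arrays (r 0.742, rho 0.644, adjusted permutation p 0.000532; r 0.558 without the 2 farthest arrays). Itgb1, the common β chain of most matrix receptors, had levels of 4.39, 5.18 and 5.82 in BBN arrays, against 4.43, 4.44 and 4.19 in normals, a 1.65-fold difference (SE 0.22, limma adjusted p 0.0158). Without normal replicate 3 it did not pass (0.64, adjusted p 0.0903), nor in the authors' deposited normalized values (0.44, adjusted p 0.121). Itgb5 and Itgb6, partners of αv in epithelia, each differed by -0.20 (limma adjusted p 0.557 and 0.694). Itgb8 was well above background on 2 of 19 BBN arrays and 0 of 3 normals, so no fold is given; its measured means differed by 1.34 (limma adjusted p 0.125), which passed without replicate 4 of Krt5-Cre R172H (1.47, adjusted p 0.0309).

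Of the 8 other laminin chains, 0 rose, 4 fell and 4 did not pass, with a median of -1.42 (of all genes, 23.7% rose and 19% fell). With the scanner as a block, 1 of the 8 fell (Lama2) and Lamb1 turned to 0.12. A further Lamc1 probe, well above background on all 22 arrays, gave 0.43, against -0.59 by the probe used. Lama2, the α2 chain of the basement membranes of muscle and nerve, had levels of -4.20, -2.04 and -0.08 in BBN arrays, against 2.76, 2.07 and 2.56 in normals. The groups lay well apart, and 16 of 19 BBN arrays were well above background. The BBN mean was -2.10 ± 1.13 and the normal mean 2.46 ± 0.36, a difference of -4.56 (SE 0.61, 23.7-fold lower, limma adjusted p 2.58e-05; -4.45 on scanner B); a further probe, well above background on 5 of 19 BBN arrays and 3 of 3 normals, gave -2.59 by its measured means. Among BBN arrays Lama2 followed the fibroblast markers (r 0.896, rho 0.865, adjusted permutation p 3.67e-05; r 0.938 within scanner A and 0.881 within scanner B).

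Lamb2, the β2 chain, was 2.92-fold lower (-0.24, 0.60 and 2.60 in BBN arrays, against 2.41, 2.23 and 2.27 in normals; SE 0.43, limma adjusted p 0.00929), with 18 of 19 BBN arrays below all normals; with the scanner as a block it did not pass (-1.30, adjusted p 0.0596). Lama1, an α chain of early and of some adult epithelia, was lower (-1.80, SE 0.69, limma adjusted p 0.0446) with 14 of 19 BBN arrays below all normals. That call was lost without normal replicate 1 (-1.41, adjusted p 0.21) or 3 (-1.70, adjusted p 0.144) and without any 1 of 7 BBN arrays (adjusted p 0.0509 to 0.063): replicate 1 of Krt5-Cre R172H, replicate 3 of Krt5-Cre R270H, replicate 2 of Upk2-Cre R270H, replicates 2 and 3 of Upk2-Cre R172H, replicate 2 of Krt5-Cre and replicate 1 of Upk2-Cre. Lamc3, the γ3 chain, was well above background on 7 of 19 BBN arrays and 3 of 3 normals and was lower by its measured mean (-1.98, limma adjusted p 0.0194), a call that was lost without any 1 of the normals (adjusted p 0.0551 to 0.0884) and with normexp background correction, where the difference was -0.37 (adjusted p 0.472). Lama4 (-1.30), Lama5 (-0.45), Lamb1 (-0.29) and Lamc1 (-0.59) did not pass (limma adjusted p 0.0712 to 0.511). In the authors' deposited normalized values Lama5 did pass (-0.78, adjusted p 0.042). Lama4 passed without replicate 2 of Krt5-Cre R270H, of Upk2-Cre R270H or of Upk2-Cre R172H or replicate 1 of Krt5-Cre (-1.51 to -1.38, adjusted p 0.0200 to 0.0491), and Lamc1 passed without replicate 2 of Krt5-Cre R270H (-0.64, adjusted p 0.0287). Lama4 and Lamc1, chains of vessel basement membranes, followed the endothelial markers over BBN arrays (r 0.892 and 0.82, rho 0.905 and 0.839, adjusted permutation p 3.67e-05 and 7.33e-05), and for Lamb1 r was 0.422 (adjusted permutation p 0.105) and rho 0.586 (adjusted permutation p 0.0145).

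Neither nidogen passed. Nid1, which bridges laminin and collagen IV, had levels of -0.85, 1.29 and 3.47 in BBN arrays, against 2.05, 1.82 and 1.72 in normals (-0.41, limma adjusted p 0.545), and a further probe, well above background on 11 of 19 BBN arrays and 2 of 3 normals, gave 0.95 by its measured means. Nid2, its paralog, had levels of -4.02, -1.91 and 0.53 in BBN arrays, against -3.28, -2.98 and -3.02 in normals (1.09, limma adjusted p 0.156), with 16 BBN arrays above all normals. Both followed the endothelial markers over BBN arrays (r 0.879 and 0.900, rho 0.919 and 0.921). The marker relations given above are among 22 such relations, chosen after the values were seen, of which 14 had an adjusted p at or under 0.05 in 100000 permutations; the smallest p the permutations can give is 1e-05. Each member was set against 1 marker list only, so whether a relation is particular to that cell type was not tested.

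The members' partners were examined in 2 lists, to be read beside the 23.7% of all genes that rose and the 19% that fell. Of 19 further basement membrane and anchoring genes, 17 were tested (Col4a3 and Col4a4 were not), 3 rose and 2 fell (median 0.31). Col7a1, the anchoring fibril collagen beneath hemidesmosomes, had levels of 3.04, 4.42 and 6.47 in BBN arrays, against 0.05, -0.43 and 0.19 in normals (4.46, SE 0.41, limma adjusted p 8.04e-07). Col17a1, the transmembrane collagen (BP180) of the hemidesmosome, had levels of 1.88, 4.18 and 5.26 in BBN arrays, against 0.52, 1.03 and 0.61 in normals (3.36, limma adjusted p 5.03e-05). Neither overlapped its normals. Frem1, of the Fraser complex under epithelia, was lower (-5.77, -4.92 and -1.68 in BBN arrays, against 0.18, -0.15 and 0.41 in normals; -4.31, limma adjusted p 7.73e-05), and Npnt, the ligand of α8β1, was higher (1.83, limma adjusted p 0.0166). Col4a5 was the other gene that fell (-1.26, limma adjusted p 0.0271; chosen after its values were seen). Of 22 cytoplasmic adaptors and kinases of integrin adhesions, 2 rose and 1 fell (median 0.11): Parva, the α-parvin that links integrin-linked kinase to actin (1.62, limma adjusted p 0.000872), Parvg, the leukocyte parvin (1.32, limma adjusted p 0.0414), and Ptk2b, the kinase related to FAK, which was lower (-0.86, limma adjusted p 0.0187). Lims2, encoding an adaptor (PINCH2) of integrin-linked kinase, did not pass (-1.45, limma adjusted p 0.053) but did without any 1 of 6 BBN arrays: replicate 2 of each of the mutant groups, and replicate 1 of Krt5-Cre and of Trp53+/- (-1.65 to -1.50, adjusted p 0.0186 to 0.0493). Without normal replicate 2, Npnt did not pass (1.67, adjusted p 0.0823), nor without normal replicate 3 (1.88, adjusted p 0.0556), and Ptk2b did not pass without normal replicate 1 or 2 (-0.85 and -0.78, adjusted p 0.0687 and 0.09) or as the mean over probes (-0.18, adjusted p 0.671). Parvg did not pass without any 1 of the normals (1.23 to 1.40, adjusted p 0.0946 to 0.142) or without 1 of 5 BBN arrays (replicate 3 of Trp53+/-, replicate 2 of Upk2-Cre R270H and replicate 1 of Krt5-Cre, of Upk2-Cre and of Upk2-Cre R172H; 1.17 to 1.33, adjusted p 0.0502 to 0.0584).

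The second question was whether the members differ with the mutant allele, the Cre driver or the loss of a wild type allele among BBN bladders. No member was called in any of the 8 comparisons, and few genes of any kind were. Both Krt5-Cre mutant groups against the Krt5-Cre controls gave 0 of 42 members called (0.0115% of all genes), with 4 members and 836 genes at an unadjusted limma p under 0.05. Both Upk2-Cre mutant groups against the Upk2-Cre controls gave 0 (0.00575% of all genes), with 6 members and 1094 genes at the unadjusted level. The difference between these 2 effects gave 0 (0% of all genes; 2 members and 578 genes unadjusted), and Krt5-Cre against Upk2-Cre mutants gave 0 (0.00575%; 3 members and 922 genes unadjusted). The Krt5-Cre mutants against all other BBN groups gave 0 (0%; 4 members and 873 genes unadjusted), and Trp53+/- against the Cre controls gave 0 (0%; 1 member, Itga10, and 841 genes unadjusted). R270H against R172H gave 0 (0%; 12 members, 28.6%, and 1708 genes, 9.81%, unadjusted), and the test for any difference among the 7 groups gave 0 (0%; 4 members and 1095 genes unadjusted). Comparisons that share groups are not independent of each other.

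Members at an unadjusted p under 0.05 are given as values. Itga3 had levels of 2.88, 4.26 and 3.54 in Krt5-Cre R270H and 3.90, 2.998, 2.73 and 3.70 in Krt5-Cre R172H, against 1.61 and 2.22 in the Krt5-Cre controls. The 7 mutant arrays lay above both controls. The difference was 1.53 (unadjusted p 0.00109, limma adjusted p 0.602), with 1.34 within slide 1 and 1.61 within slide 3 (2 mutants and 1 control each). The mutants were both R270H on slide 1 and both R172H on slide 3. Itgal also lay above both controls in all 7 mutant arrays, at -2.39, -1.29 and -2.72 in Krt5-Cre R270H and -1.53, -1.15, -2.35 and -2.89 in Krt5-Cre R172H, against -3.41 and -4.34 in the controls (1.81, limma adjusted p 0.606; 2.50 within slide 1 and 0.79 within slide 3). The Itgal control at -4.34, the only control on slide 1, was not well above background. Lamb1 (1.17) and Itgax (1.04) were the other 2 members at the unadjusted level, neither passing the adjusted test. In the test of the difference between the drivers' effects, Itgal (1.83) and Itga3 (1.28) were those at the unadjusted level (limma adjusted p 0.998 each).

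With the Upk2 driver, Nid1 had levels of 3.15 and 3.47 in Upk2-Cre R270H and 1.29, 2.81 and 0.34 in Upk2-Cre R172H, against 0.53 and 0.60 in the Upk2-Cre controls. The lowest mutant array lay below both controls. The difference was 1.83 (limma adjusted p 0.777; 0.95 within slide 3, which held 3 mutants and 1 control). Those 3 mutants were all R172H, so the slide 3 values of this comparison cover that allele alone. Nid2 differed by 2.06 (limma adjusted p 0.777; 2.37 within slide 3), Lamc1 by 1.03 (limma adjusted p 0.777; 0.78 within slide 3), Itga9 by 1.59 (limma adjusted p 0.785; 0.84 within slide 3) and Itgb1 by 0.67 (limma adjusted p 0.788; 0.10 within slide 3). Itga2b, at -2.46 and -1.20 in Upk2-Cre R270H and -5.57, -1.67 and -5.17 in Upk2-Cre R172H, against -5.84 and -4.66 in the controls, was not well above background on either control (limma adjusted p 0.784). Endothelial markers averaged 1.79 in Upk2-Cre R270H and 0.31 in Upk2-Cre R172H, against -1.10 in the Upk2-Cre controls, and their part in these differences was not tested. Between Krt5-Cre and Upk2-Cre mutants, Itgax (0.99; 1.62 within slide 2 and 0.53 within slide 3), Itgb5 (0.61; 0.76 and 0.57) and Itga2b (-1.80; -2.64 and -1.64) were at the unadjusted level (limma adjusted p 0.886 each). On slide 2 the Upk2-Cre mutants were all R270H while the Krt5-Cre mutants held both alleles. On slide 3 all mutants were R172H. The Krt5-Cre mutants against all other BBN groups had Itgax (0.80), Itga3 (0.69), Itgal (0.62) and Lamb1 (0.57) at that level, and Trp53+/- against the Cre controls had Itga10 (0.86).

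Between the alleles, Itga7 had levels of 1.70, 2.60 and 0.41 in Krt5-Cre R270H and 0.51 and 1.99 in Upk2-Cre R270H, against 0.08, -0.0022, 0.64 and 0.12 in Krt5-Cre R172H and -0.73, 0.28 and -0.88 in Upk2-Cre R172H. The highest R172H array lay above 2 of the 5 R270H arrays. The difference was 1.52 (unadjusted p 0.0014, limma adjusted p 0.231; 0.93 within slide 2, the one slide with both alleles). It passed in 1 setting, without replicate 3 of Krt5-Cre R270H (1.81, adjusted p 0.0326), where 134 of all genes passed as well. Of the other 11 members at the unadjusted level, Itgad (2.09), Itga9 (1.49), Itga1 (1.36), Itga2b (1.74), Itga8 (1.65), Nid1 (1.14), Lama2 (1.26), Lamb1 (0.74) and Lamc1 (0.54) were higher with R270H, and Itgb6 (-0.92) and Lamb3 (-0.97) lower. Within slide 2 (3 R270H and 2 R172H arrays) the differences were 0.08 for Itgad, 1.86 for Itga9, 1.04 for Itga1, 2.57 for Itga2b, 0.42 for Itga8, 1.87 for Nid1, 1.40 for Lama2, 1.17 for Lamb1, 0.68 for Lamc1, -0.62 for Itgb6 and -0.92 for Lamb3. Itgad and Itga8 thus differed less within that slide than over all arrays. Itgad was well above background on 1 of 2 Upk2-Cre R270H arrays and on 0 in Krt5-Cre R270H and both R172H groups. Its difference therefore mostly compares background signals, which depend on the scanner. Itga2b and Itga8 were near background on part of these arrays. On slide 2 both R172H arrays had the Krt5 driver, while the R270H arrays had either driver. Smooth muscle markers averaged 4.33 in Krt5-Cre R270H and 4.33 in Upk2-Cre R270H, against 2.55 in Krt5-Cre R172H and 2.31 in Upk2-Cre R172H. Other marker lists differed between the alleles in the same arrays: fibroblast markers were above 0 in 7 of 7 (median difference 1.098), endothelial markers in 7 of 7 (1.16), Schwann cell markers in 4 of 5 (1.71), luminal markers in 9 of 9 (0.93), platelet markers in 4 of 4 (1.02) and basal markers in 0 of 7 (-0.46), none of these genes being called. Fibroblast markers averaged 2.60 in Krt5-Cre R270H and 3.104 in Upk2-Cre R270H, against 1.48 in Krt5-Cre R172H and 1.94 in Upk2-Cre R172H. Endothelial markers averaged 0.56 in Krt5-Cre R270H and 1.79 in Upk2-Cre R270H, against -0.14 in Krt5-Cre R172H and 0.31 in Upk2-Cre R172H. The part of these markers in the differences was not tested. All 5 R270H arrays were scanned on scanner A and 5 of the 7 R172H arrays on scanner B.

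The members' median SD over the 19 BBN arrays was 0.823, beside 0.576 over all genes. Cd151 and Itgav varied least (14.9th and 12.6th percentiles of all genes' SDs), and Itga11, Itga8, Itga2b and Itgb7 most (94.5th, 93.9th, 93.7th and 93.2nd percentiles). Itga11, Itga8 and Itga2b were well above background on 12, 9 and 7 of the 19 BBN arrays. Their spread therefore includes background signals, which depend on the scanner. Of the chain pairs not yet named, Lama4 and Lamc1 (r 0.749, rho 0.754, adjusted permutation p 0.00125), Nid1 and Lamc1 (r 0.740, rho 0.786, adjusted p 0.00176) and Lamb1 and Lamc1 (r 0.598, rho 0.605, adjusted p 0.0232) varied together. The integrin partners Itga3 and Itgb1 (r 0.018), Itgal and Itgb2 (r 0.415), Itgax and Itgb2 (r 0.373) and Itgae and Itgb7 (r -0.21) had no adjusted p at or under 0.05.

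**Figure D5:**
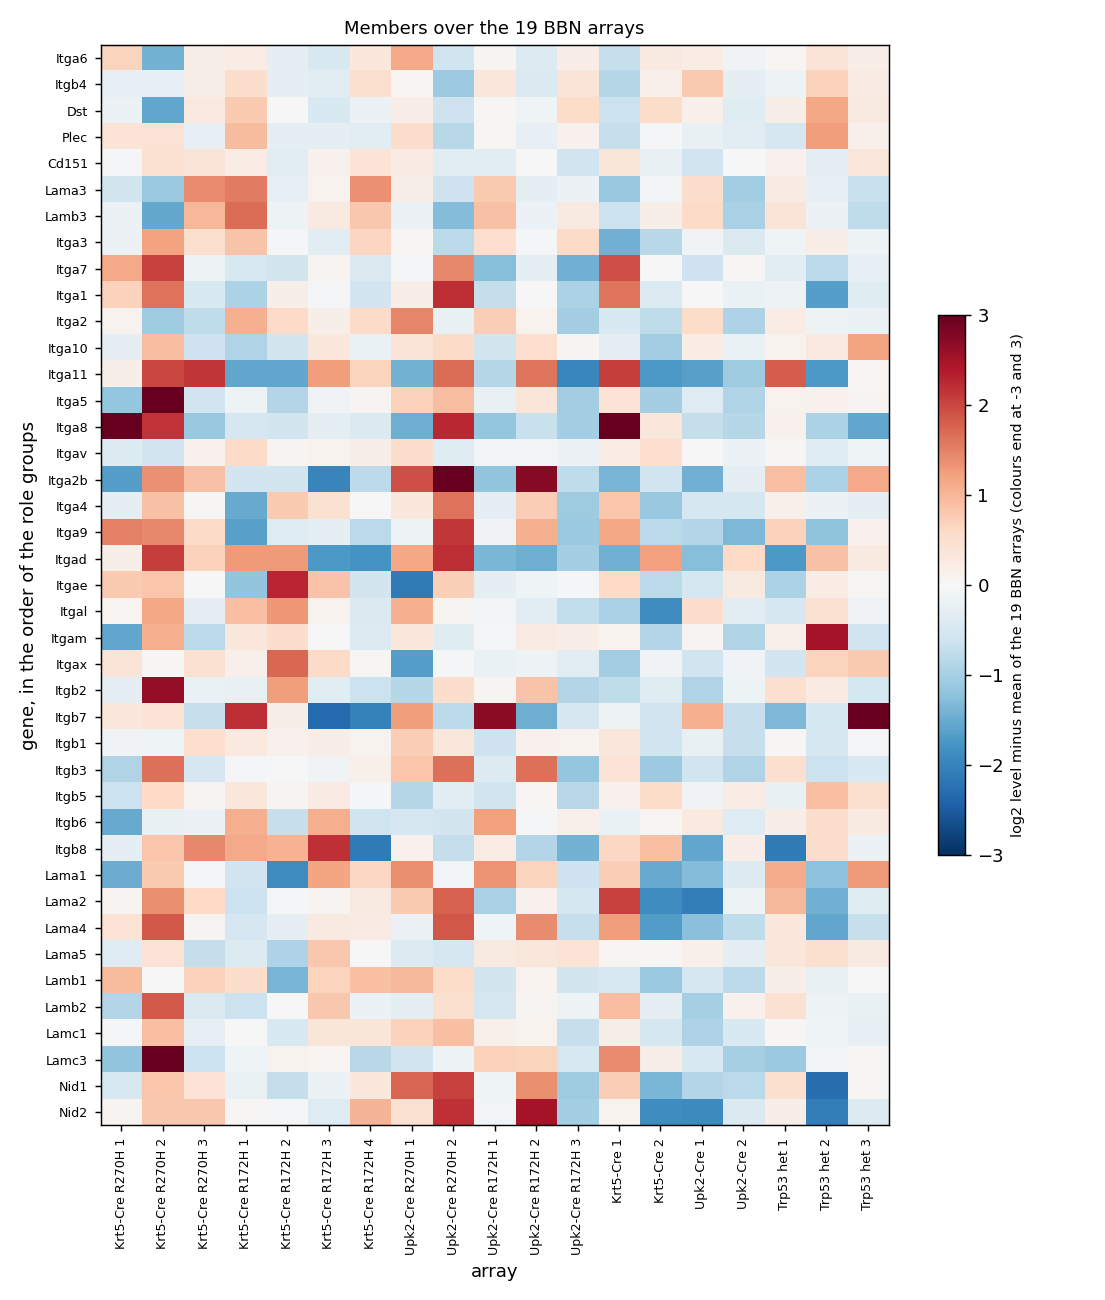
Deviation of each member's log2 level from its mean over the 19 BBN arrays (colour, ending at -3 and 3), with the members named in the text as rows by role and BBN arrays as columns by group. Lama3 and Lamb3 shift together from array to array, and Itga11, Itga8, Itga2b and Itgb7 have the widest spread. For Itga11, Itga8 and Itga2b this spread includes arrays near background.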

How the data were processed

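The arrays were read with Agilent Feature Extraction 11.0.1.1 and the probes designed on mm9, per the file headers; the submitters' processing notes name version 9.1 and limma. The deposited intensity values are the scanner software's background-subtracted processed signals per spot, per the file headers. The authors' deposited log2 table had been brought to a common distribution, as read from its values; it covered 11028 genes and served as an alternative. Of 59305 non-control spots per array, flagged outliers (53 to 301) were dropped, and 32994 of 56605 probes had a gene symbol through RefSeq accessions; 18 genes with a flagged value were left out. Log2 intensity minus the array's 75th percentile was fitted with limma 3.58.1 in R 4.3.3 (8 group means, 1 shared spread, eBayes, Benjamini-Hochberg over 17404 genes). The brightest probe stands for a gene. The alternatives (39 settings with the main one) are in the closing section: normexp background with offset 50, quantile scaling, filters, probe means, slide, scanner, sex, weights and leaving out each array. limma was tested on simulated arrays with known changes, and no statement here rests on that test.

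A member and a marker gene enter the counts but are not reported here by name. Members and lists were chosen with earlier results of these data known. Lowest, median and highest levels with each normal's level are given for the 2 members of smallest p per role group; levels of other members are given by range or were chosen after their values were seen; from each partner list the 4 genes of smallest p and from each marker list the first gene are named. Same-numbered samples did not deviate together (median r 0.03 over 66 pairs, -0.48 to 0.56, against -0.01 over 144 other pairs), so replicate numbers do not pair the samples. Correlations used SciPy 1.17.1 in Python 3.11.15 with 100000 permutations and adjustment within each family. Promoter sequences are RefSeq's, on GRCm38.p6.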

Additional observations from a re-analysis of the deposited data

Results flagged for a closer look

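In the 4 Krt5-Cre R172H arrays, the one group large enough for a test of single values, each member's highest and lowest array was compared with the others (the gap to the nearest array over the group's range, against Dixon's 95% critical value). Chance flags about 1 in 20 groups, or about 2 of the 42 members; 4 were found. Plec, encoding plectin, was highest in replicate 1 at 6.50, with the other 3 arrays at 5.25 to 5.28 (ratio 0.975). Itgav was highest in the same replicate at 3.99, with the others at 3.50 to 3.58 (ratio 0.835). Itga2b was lowest in replicate 3 at -6.38, with the others at -5.18 to -4.95 (ratio 0.84). It was well above background on 1 of these 4 arrays, which was not replicate 3, so this flag mostly compares background signals. Lamb1 was lowest in replicate 2 at 1.63, with the others at 3.54 to 3.93 (ratio 0.83).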

How the results depend on the processing

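Of the 22 members called between BBN and normal bladders, 10 were called in every setting that held the gene (among them Itga6, Itgb4, Itga3, Itga2, Itga11, Itgal, Itgax, Itgb3 and Lama2). The other 12 lost the call or changed sign in at least 1 setting, 9 of them without 1 normal array and 8 with the slide as a random block (Itga1, Itga10, Itga2b, Itga5, Itgb1, Lama1, Lama3 and Lamc3), while 15 uncalled members gained a call in some setting. Dst (-0.26) and Itga10 (1.54) reversed with the mean over probes. With the sex label as a covariate, Itga1, Itga5, Itgb1 and Lama3 lost their calls (adjusted p 0.0799, 0.185, 0.0805 and 0.0927), while Itgb6 gained one (-0.84, adjusted p 0.0473). With the sex read from the array, Lama1 and Lama3 lost theirs (adjusted p 0.0649 and 0.0548). Itga8, Itgad and Itgae, none of them called, changed sign under normexp, where Itga10, Itgb1 and Lamc3 lost their calls, and 13 members have no value in the deposited table. Members called higher numbered 15; array weights gave 23, the other settings that keep all replicates 10 to 16. Members called lower numbered 7. Array weights gave 13, a slide or scanner block 4 each, the deposited values 2, and probes well above background on all arrays 1. Both of these last settings lack Itga10, Itga11, Itga4, Lama1, Lama2 and Lamc3, which the main fit called lower. Leaving out 1 replicate at a time gave 10 to 16 higher and 4 to 9 lower members, with 4 lower without normal replicate 1 or 3. Over all genes, 4119 were higher and 3313 lower; the numbers higher were 7456 with array weights, 2557 with the scanner as a block, 2525 with the strict background filter and 2392 in the deposited table, and those lower 5654 with array weights and 2061 with the strict filter. Leaving out 1 replicate gave 2654 to 4580 higher, the fewest without normal replicate 3, and 2254 to 3562 lower. With the replicate number as a block, which does not pair these samples, 14 members were higher and 7 lower.

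Among BBN bladders, no member was called in any setting that kept all replicates, and leaving out 1 gave 0 to 1 called members for R270H against R172H (Itga7) and 0 for the other 7 comparisons. Over all genes, a fixed slide block gave 60 calls for Krt5-Cre mutants against their Cre controls (2 in the main setting), 55 for Upk2-Cre mutants against theirs (main 1), 54 for Trp53+/- against Cre controls (main 0), 40 among the 7 groups (main 0), 33 for R270H against R172H (main 0), 2 for Krt5-Cre against Upk2-Cre mutants (main 1) and 1 for Krt5-Cre mutants against other BBN groups (main 0). The scanner block gave 17 for Trp53+/- against Cre controls, 17 for R270H against R172H, 5 for Krt5-Cre mutants against controls, 4 among the groups and 2 for Krt5-Cre against Upk2-Cre mutants. Array weights gave 2, 1, 0, 2 and 2 calls for those 5 comparisons in that order. For Krt5-Cre mutants against controls, quantile scaling gave 5, averaging arrays of 1 animal code 3, no filter on dim probes 1 and the sex read from the array 1, and normexp, probe means, the replicate block, leaving out arrays that did not match their sex label and fitting only the arrays compared gave 0. For Upk2-Cre mutants against controls, normexp, quantile scaling, the deposited table, either other filter, the replicate block, either sex covariate, averaged arrays and only the arrays compared gave 0. For Krt5-Cre against Upk2-Cre mutants, averaged arrays gave 3, and normexp, the deposited table, the strict filter, the replicate block, leaving out arrays that did not match their sex label and only the arrays compared gave 0; quantile scaling gave 1 for Trp53+/- against Cre controls. Leaving out 1 replicate at a time gave 0 to 134 calls for R270H against R172H (134 without replicate 3 of Krt5-Cre R270H), 0 to 5 among the groups, 0 to 4 for Krt5-Cre mutants against controls, 0 to 3 for Krt5-Cre against Upk2-Cre mutants, 0 to 2 for Upk2-Cre mutants against controls and 0 to 1 for the other 3 comparisons. The slide could not be a fixed block for BBN against normal. Causes were not tested, except that the deposited table and the strict filter hold fewer genes (11028 and 11104). Signal over background limits Itgad, Itgb8, Itga2b and Lamc3, measured on few arrays.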
